A study of Gallus gallus with 3 samples.

Results

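The whole crista library at E16 is 1 of the 3 RNA libraries of this chicken embryo study, and is described here on its own. It was chosen by its label, as the only library of the organ. It was made from total RNA of ampullary cristae that were dissected from 22 embryos (Isa Brown, both sexes, no treatment) at embryonic day 16 (E16) and pooled, with an input of 500 pg. The other libraries, each from a single hair cell (type I at E20, type II at E19), were not compared with it. With 1 library there is no replicate, no test was made, and no value has an error beyond that of counting.

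The crista ampullaris is the sense organ of a semicircular canal. Its hair cells sense head rotation through bundles that reach into a gelatinous cupula, and they rest among supporting cells that are coupled by gap junctions. Epithelia beside the sensory patch secrete K+ into the endolymph and shed matrix proteins into it. Afferent fibres with their myelin, loose connective tissue with vessels, and the cartilage of the otic capsule lie beneath. Dissected tissue can hold RNA of all of these, and in such a bulk sample fewer cells of a type and less RNA per cell cannot be told apart.

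For each of 30108 Ensembl genes the files give an estimated number of reads and its level as transcripts per 1000000 transcripts (TPM), in which reads are divided by gene length and scaled to the library. The library sums to 67428006 estimated reads. At least 1 read was found for 18001 genes, and their median level was 8.54 TPM. A symbol is given for 15097 genes, of which 12903 (85.5%) had a read. Among the 15011 genes listed by identifier alone, 5098 (34.0%) had one. Below, counts of list genes that were read stand beside the 85.5% of all genes with a symbol. A count of 0 allows up to 3 reads by the one-sided limit, or 0.0445 reads per 1000000 (CPM). The exact Poisson 95% interval of a level reached 1.98% above the value at 10000 reads, 6.40% at 1000 reads and 21.6% at 100 reads. These limits and intervals cover counting error only, since reads of amplified cDNA without molecular identifiers are not independent molecules.

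The reads were spread over many genes rather than taken by a few. The gene with the highest level held 2.25% of all TPM, the first 10 genes held 11.7% and the first 100 held 29.8%. It took 439 genes to reach 50% of the TPM. Levels of at least 1000 TPM were found for 120 genes, which together held 31.9% of the TPM. A further 1642 genes lay between 100 and 1000 TPM and held 41.8%. Between 10 and 100 TPM there were 6788 genes with 24.0%, so that 47.5% of the detected genes stood at 10 TPM or more. Genes with a symbol numbered 116, 1611 and 6492 at these levels, highest first, out of 12903 read. Their share at 10 TPM or more was thus above 47.5%, which also counts genes without a symbol, mostly lower. List genes all carry a symbol, so 47.5% and the median of all detected genes understate what was usual among comparable genes.

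**Figure D1:**
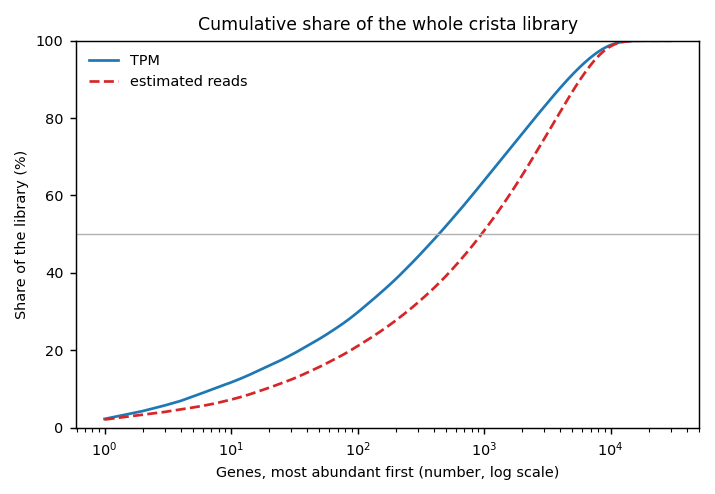
Cumulative share of the whole crista library (y axis, %) against the number of genes taken from the most abundant down (x axis, log scale), for TPM (solid line) and for estimated reads (dashed line), with a grey line at 50%. The TPM curve lies above that of the reads, with 29.8% of TPM and 21.1% of reads in the first 100 genes.

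All 8 markers assigned to this organ were read at 10 TPM or more, where 47.5% of all detected genes were. They were chosen with earlier results of these data known, so this count does not set them apart from other genes. *HBA1*, the adult alpha-globin, stood at 22447 TPM, and *COCH*, the gene of the matrix protein cochlin, at 11434 TPM. *AGR3*, a protein disulphide isomerase relative of the endoplasmic reticulum, reached 1919 TPM, *MBP*, the myelin basic protein, 1702 TPM, *GJB6*, the gap junction protein connexin 30, 1316 TPM and *COL1A2*, a chain of type I collagen, 1174 TPM. *CALB2*, the Ca2+ buffer calretinin, had 502 TPM and *OTOF*, the Ca2+ sensor of the hair cell synapse, 47.6 TPM. By reads *COCH* came before *HBA1*, and *COL1A2* before *MBP*, *AGR3* and *GJB6*.

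Genes for secreted proteins of the inner ear formed the most abundant class among the 100 nuclear, symbol-bearing genes of highest TPM. The class holds *COCH*, *CTAGE1*, *OTOS*, *OC90* and *ZPLD1*, with 3.50% of the TPM and 3.39% of the reads of the library. The classes were set after the values were seen, and their order depends on how genes are grouped. Glycolysis with creatine kinase (2.66% of the TPM) and mitochondrial energy supply (2.47%), for instance, were kept apart. *COCH* (ENSGALG00010005509, GRCg7b chromosome 5, 33743167 to 33761483) had more reads than any other gene, 1404030 or 2.08% of the library. The gene deposited as *CTAGE1* (ENSGALG00010019275, chromosome 3, 5837018 to 5842319) is listed in RefSeq with *OTOR* as another name. *OTOR* encodes otoraplin, a small secreted protein that was named for its expression in the ear. *CTAGE1* had 146335 reads and 9459 TPM. *OTOS* (ENSGALG00010025591, chromosome 9, 4877648 to 4880287) encodes otospiralin, a small secreted protein of inner ear fibrocytes in mammals, and had 95696 reads and 6150 TPM. *OC90* (ENSGALG00010008131, chromosome 2, 140349225 to 140370009), the gene of a main otoconial protein that cells outside the sensory patch secrete, reached 429437 reads and 5350 TPM. *ZPLD1* (ENSGALG00010004577, chromosome 1, 85726774 to 85850573), a zona pellucida domain protein of the cupula, reached 212394 reads and 2557 TPM.

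How these 5 genes rank depends on gene length. By TPM *COCH* stood 1.21 times above *CTAGE1* and 1.86 times above *OTOS*, but by reads 9.60 times and 14.7 times. The effective lengths, over which a fragment can start, were 2970 bases for *COCH*, 374 for *CTAGE1* and 376 for *OTOS*. With the annotated in place of the effective length, *COCH* remained above both, by 2.14 and 2.88 times.

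Other proteins of acellular gels followed at lower levels. *OTOG*, the gene of otogelin, which anchors the gels to the epithelium, had 153 TPM, and its relative *OTOGL* had 56.8 TPM. *OTOA*, the gene of otoancorin, which attaches gels to supporting cells, had 184 TPM. The tectorins *TECTA* and *TECTB*, known from the tectorial membrane, had 35.4 and 20.4 TPM. *OTOL1*, a collagen-like protein of otoconia, had no read. Of the 28 genes matched in a list of inner ear gel and matrix proteins, 27 were read. Of these 27, 26 (96.3%) reached 10 TPM, against 47.5% of all genes detected, with or without a symbol. The 28 genes held 2.81% of the TPM and 4.54% of the reads, the largest share of the reads among all 29 lists examined. The basement membrane was represented by *NID1* (nidogen, 527 TPM), *LAMC1* (261 TPM) and *LAMB1* (190 TPM), both laminin chains, and *COL4A2* (87.6 TPM), a type IV collagen chain.

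**Figure D2:**
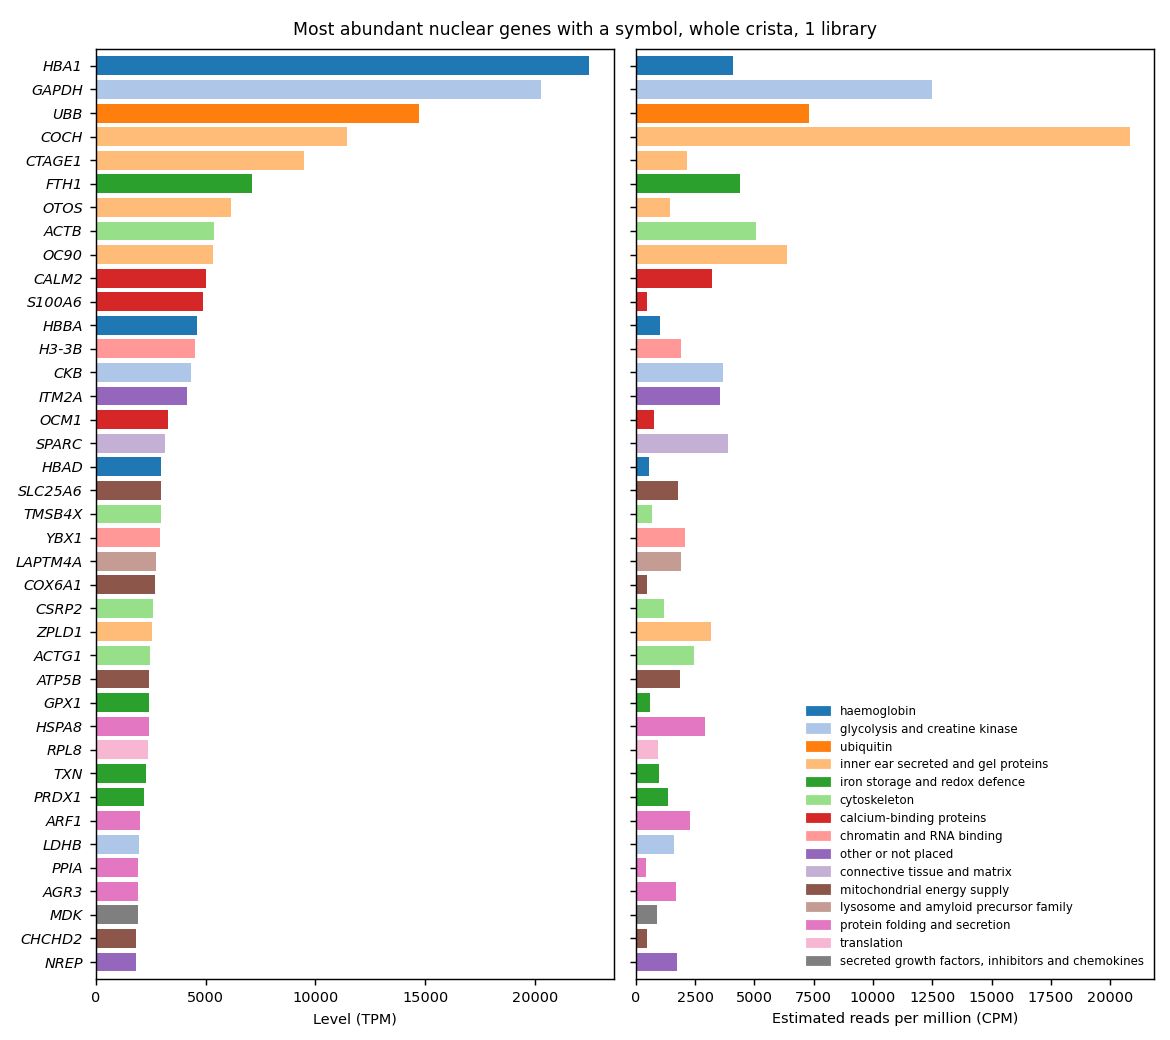
Genes among the 40 most abundant symbol-bearing nuclear genes of the whole crista in order of TPM, as TPM (left, x axis from 0) and as CPM (right, x axis from 0), coloured by the class given in the legend. *HBA1* leads on TPM with 22447, whereas *COCH* leads on CPM with 20823.

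Of 35 hair cell markers, 31 matched a symbol, and all 31 were read. They held 0.529% of the TPM, and 19 of them (61.3%) stood at 10 TPM or more. This is above the 47.5% of all genes detected, but not above the share among genes with a symbol. The list median was 26.0 TPM. A single gene held 62.1% of the sum. This was *OCM1*, the EF-hand Ca2+ buffer oncomodulin (ENSGALG00010021918, chromosome 14, 1033517 to 1037031), with 50030 reads and 3289 TPM. *ANXA5*, the Ca2+-dependent membrane binder annexin A5, came next with 534 TPM, before *CALB2*, and *STARD10*, a lipid transfer protein, had 159 TPM. *CALB2* had 18154 reads, a TPM 6.55 times lower than that of *OCM1* and read counts 2.76 times lower. The related Ca2+ buffers *PVALB* and *CALB1* stood at 3.92 TPM (95% interval 3.37 to 4.54) and 3.61 TPM (3.16 to 4.11).

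Genes of the hair bundle covered a wide range. *MYO6*, the minus-end-directed myosin of the bundle base, had 159 TPM and *MYO7A*, another hair bundle myosin, 11.1 TPM. *USH1C*, the scaffold harmonin, had 97.8 TPM, *FSCN2*, an actin cross-linker, 71.6 TPM, and *ESPN*, the actin bundler espin, 25.0 TPM. Among the transduction genes, the Ca2+- and integrin-binding subunits *CIB3* and *CIB2* had 76.8 and 37.3 TPM and the auxiliary subunit *LHFPL5* 47.2 TPM. The pore-forming subunits *TMC1* and *TMC2* were lower, with 7.90 TPM (95% interval 7.45 to 8.36) and 4.04 TPM (3.68 to 4.42), and the auxiliary subunit *TMIE* had 1.16 TPM (0.935 to 1.43). The tip-link cadherins *PCDH15* and *CDH23* had 8.01 and 2.31 TPM. *ATP2B2*, the plasma membrane Ca2+ pump of the bundle, had 36.7 TPM.

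At the synapse, *SLC17A8*, the vesicular glutamate transporter of hair cells, had 28.5 TPM beside *OTOF*. The efferent acetylcholine receptor subunits *CHRNA10* and *CHRNA9* had 45.6 and 18.0 TPM, in this order on TPM, while *CHRNA9* had more reads. *BDNF*, a neurotrophin for the afferents, had 35.5 TPM. The transcription factors *GFI1* and *POU4F3*, needed for hair cell survival in mammals, had 26.0 TPM and 6.63 TPM (95% interval 5.43 to 8.01). *KCNA10*, *TMIE* and *SLC8A1* were the lowest of the list, at 1.45, 1.16 and 0.806 TPM.

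The supporting cell list held more of the library. Its 24 matched genes, all read, made up 0.759% of the TPM. Of these, 20 (83.3%) reached 10 TPM, against 47.5% of all genes detected, with or without a symbol. After *ZPLD1*, *AGR3* and *GJB6* came *GJB2*, connexin 26, with 308 TPM, 4.27 times less than *GJB6* on TPM and 21.2 times less on reads. *SERPINF2*, a plasmin inhibitor, had 271 TPM, *TIMP3*, a matrix metalloproteinase inhibitor, 142 TPM, and the glutamate transporter *SLC1A3* 123 TPM. Of the Notch pathway, *LFNG*, which modifies the receptor, had 80.9 TPM, the target *HES1* 66.6 TPM and the ligand *JAG1* 56.9 TPM. *SOX2*, a transcription factor of supporting cells and their precursors, was the lowest of the list, with 90.0 reads and 1.70 TPM (95% interval 1.37 to 2.09). *LGR5*, a Wnt co-receptor, and *HEY2*, a Notch target, were also low, at 3.17 and 2.64 TPM.

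Of the dark and ion transport cell markers 14 matched and 13 were read. Of these 13, 12 (92.3%) reached 10 TPM, against 47.5% of all genes detected, with or without a symbol. Dark cells secrete K+ into the endolymph. *KCNE1* and *KCNQ1*, the subunits of the apical K+ channel, had 260 and 56.0 TPM. *SLC12A2*, the basolateral Na+/K+/2Cl- cotransporter, had 220 TPM, and carbonic anhydrase *CA2*, which red cells contain as well, 204 TPM. *BSND*, the Cl- channel subunit barttin, had 57.6 TPM, and *ESRRB*, a nuclear receptor of endolymph-secreting cells in mice, 84.1 TPM. *SLC26A4*, the anion exchanger pendrin, was low at 4.77 TPM, and *FOXI1*, a transcription factor upstream of it in mice, had no read.

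**Figure D3:**
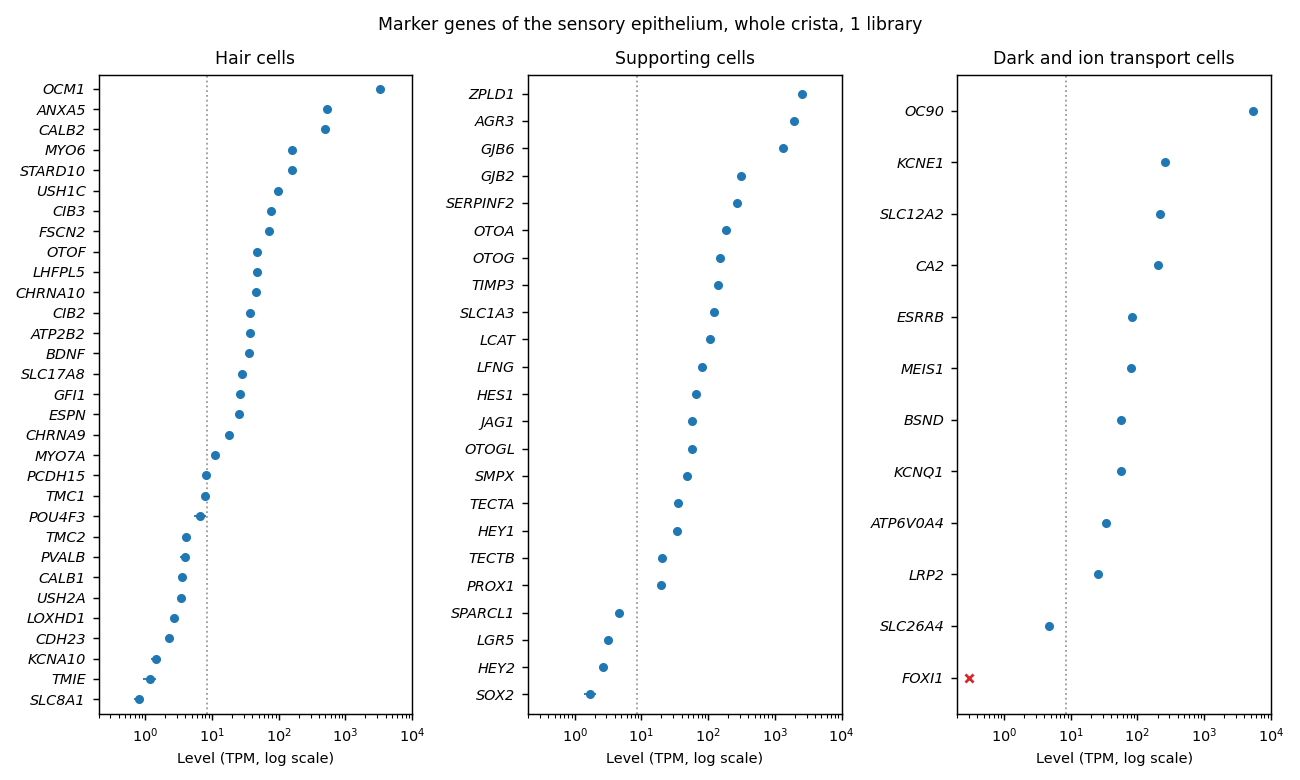
Levels of the reported markers of hair cells, supporting cells, and dark and ion transport cells in the whole crista (x axis, TPM, log scale), ordered by level. Points are the deposited TPM, bars the Poisson 95% interval from counting (mostly smaller than the point), the red cross marks a gene with no read (set at the left, since a log axis has no 0), and the dotted line marks the median of all detected genes, 8.54 TPM. *OCM1*, *ZPLD1* and *OC90* lead the lists at 3289, 2557 and 5350 TPM, and *SOX2* closes the second at 1.70 TPM.

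Myelin genes were among the leading ones, whereas most neuronal genes were not. The 14 matched glial genes were all read and held 0.368% of the TPM. *MBP* and *PMP22*, both of compact myelin, accounted for most of it, at 1702 and 1292 TPM. *SOX10*, the transcription factor of Schwann cells and other neural crest derivatives, had 52.9 TPM, and *S100B* 73.1 TPM. *FABP9*, which RefSeq lists with *PMP2*, a myelin fatty acid binding protein, as another name, had 974 TPM. *MPZL1*, a membrane protein of the immunoglobulin family, had 225 TPM. *ERBB3*, the neuregulin receptor of Schwann cells, had 0.209 TPM.

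Among 20 afferent neuron markers, 17 were read, where 85.5% of all genes with a symbol were. Of these 17, 9 (52.9%) reached 10 TPM, a smaller share than among all genes with a symbol that were read. Over all genes detected, with or without a symbol, it was 47.5%. The sum was 0.113% of the TPM. *UCHL1*, a deubiquitinase abundant in neurons, held 64.0% of that sum at 721 TPM, and *TUBB3*, a neuronal tubulin, had 188 TPM. The neurofilament genes *NEFL*, *NEFM* and *NEFH* had 16.8, 2.79 and 0.465 TPM. The receptors *NTRK2* and *NTRK3*, for the neurotrophins BDNF and NT-3, had 69.3 and 12.7 TPM. *GATA3* and *ISL1*, transcription factors that are not limited to neurons in the ear, had 41.5 and 17.8 TPM. *NEUROD1* and *POU4F1*, transcription factors of the ganglion cell bodies, and *TH* had no read.

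The connective tissue list held a share of the TPM close to that of the supporting cell list. The lists differ in make-up, and their sums do not measure how much RNA a cell type gave. All 25 markers of mesenchyme and fibroblasts were read, and 21 (84.0%) reached 10 TPM. Over all genes detected, with or without a symbol, 47.5% did. The sum of the 25 markers was 0.777% of the TPM and 1.22% of the reads. *SPARC*, a collagen-binding matrix protein, led with 3151 TPM, followed by *COL1A2*, the proteoglycan *DCN* (decorin, 958 TPM) and the intermediate filament *VIM* (834 TPM). *COL1A1*, the other chain of type I collagen, had 356 TPM. *COL1A2* lay above it 3.30 times on TPM, 5.87 times with annotated lengths and 6.85 times on reads. *PDGFRB*, a growth factor receptor, was the lowest at 3.22 TPM. *TBX18* and *POU3F4*, transcription factors of otic mesenchyme, had 32.2 and 15.9 TPM.

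The list for cartilage of the otic capsule spanned a wide range. Of its 18 genes, 15 matched a symbol and all 15 were read. The collagen genes *COL2A1* and *COL11A2* had no matching symbol. *EPYC*, the small proteoglycan epiphycan, had 1328 TPM, the type IX collagen chains *COL9A1* and *COL9A3* had 1199 and 977 TPM, *MATN4* (matrilin 4) 858 TPM and *COL11A1* 387 TPM. *LECT1*, another name of chondromodulin, was deposited outside the matched symbols of the list and had 312 TPM. *SOX9* and *CHAD*, also on the list, lay between, at 74.8 and 51.6 TPM. At the low end, *ACAN*, the aggrecan of mature cartilage, stood at 1.51 TPM (95% interval 1.38 to 1.66), *MATN1* at 5.81 TPM and *COMP* at 0.257 TPM. *COL9A1* lay 792 times above *ACAN* on TPM and 366 times on reads. *COL9A1*, *COL9A3*, *EPYC* and *COL11A1* are also known from non-cartilaginous matrices of the ear, and the list does not separate the sources.

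The bone and muscle lists had lower sums of TPM than the cartilage list. The median of the genes read was 15.4 TPM for bone, 65.5 TPM for skeletal muscle and 16.3 TPM for smooth muscle and pericytes. For cartilage it was 60.0 TPM. *SPP1*, osteopontin, held 83.6% of the bone list at 466 TPM, while *IBSP*, bone sialoprotein, had 43.0 TPM and *RUNX2*, which specifies osteoblasts, 13.4 TPM. *BGLAP*, osteocalcin, had 0.849 TPM, *MEPE* 0.325 TPM and *SOST*, a gene of osteocytes, had no read. Genes of the contractile apparatus of skeletal muscle were read, with *MYL1* at 293 TPM, *TNNC2* at 218 TPM, *TNNT3* at 114 TPM, *MYLPF* at 99.3 TPM and *TNNI2* at 65.5 TPM. *MYOD1*, which specifies muscle cells, had 4.60 TPM, and *MYOG*, which starts their differentiation, had 2 reads. Of the smooth muscle and pericyte list, *MYL9* (362 TPM) and *ACTA2* (206 TPM) led, *RGS5*, a pericyte gene, had 46.3 TPM, and the subunits of a vascular K+ channel, *KCNJ8* and *ABCC9*, had 33.5 and 16.3 TPM. *CSPG4*, another pericyte gene, had 0.131 TPM and *MYH11*, the smooth muscle myosin heavy chain, 1.79 TPM. The part of muscle and bone in the other levels was not tested.

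Beside the assigned markers, which share *HBA1* with it, the erythroid list had the largest sum of TPM among the cell types, and this rested on globins. The 13 matched erythroid genes held 3.10% of the TPM and 0.619% of the reads. *HBA1* (ENSGALG00010019732, chromosome 14, 12118602 to 12119420) had 274665 reads over an effective length of 296 bases. Its neighbour *HBAD*, the other adult alpha-like globin, had 2985 TPM. *HBBA*, the adult beta-globin, had 4599 TPM, 6.54 times more than the beta-like *HBE1*, with 703 TPM. *HBZ*, the alpha-like globin of early embryos, had no read. Other erythroid genes were far lower, such as the Rh proteins *RHCE* (25.6 TPM) and *RHAG* (16.5 TPM) and the anion exchanger *SLC4A1* (12.4 TPM). *SPTB*, beta-spectrin, was the lowest gene read, at 1.94 TPM. Globin copies are alike in sequence, and whether reads common to them were split correctly was not tested.

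The marker lists of vessels, immune cells and pigment cells held little of the TPM, which does not measure how much RNA these cells gave. All 16 endothelial genes were read and summed to 0.0222%. *EGFL7*, secreted by endothelial cells, led with 48.2 TPM, followed by *EMCN* (34.7 TPM), the adhesion molecules *PECAM1* (31.1 TPM) and *CDH5* (30.8 TPM) and the transcription factor *FLI1* (18.4 TPM). Their median of 6.17 TPM lay below that of all detected genes. Immune genes summed to 0.0588%, led by *CD74*, the invariant chain of antigen presentation (216 TPM), *LAPTM5* (66.7 TPM) and *CSF1R*, the macrophage growth factor receptor (64.4 TPM). *CTSS*, a lysosomal protease, had 50.3 TPM and *LYZ*, lysozyme, 43.2 TPM. *CD3E* of T cells had 28.7 TPM, whereas *CD4* and *CD8A* had no read. The melanocyte list summed to 0.0228%, of which *TYRP1*, a melanin enzyme, held 71.0% at 162 TPM, while *MITF*, the transcription factor of the lineage, had 16.5 TPM, *EDNRB*, an endothelin receptor, 15.9 TPM and *OCA2* 13.3 TPM. *PMEL*, a melanosome protein, had 1.67 TPM, and *TYR*, tyrosinase, and *GPNMB* had no read.

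Epithelial genes outside the sensory lists were led by *EPCAM*, an epithelial adhesion molecule (1062 TPM), and *KRT7*, a keratin of simple epithelia (631 TPM). *CDH1*, E-cadherin, had 79.7 TPM and the keratins *KRT8* and *KRT18* 52.8 and 9.48 TPM. *KRT14* and *TP63* of stratified epidermis had 6.61 and 1.54 TPM, and *KRT5* had no read. *CLDN1*, *CLDN3* and *CLDN9*, proteins of tight junctions, had 649, 186 and 108 TPM.

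**Figure D4:**
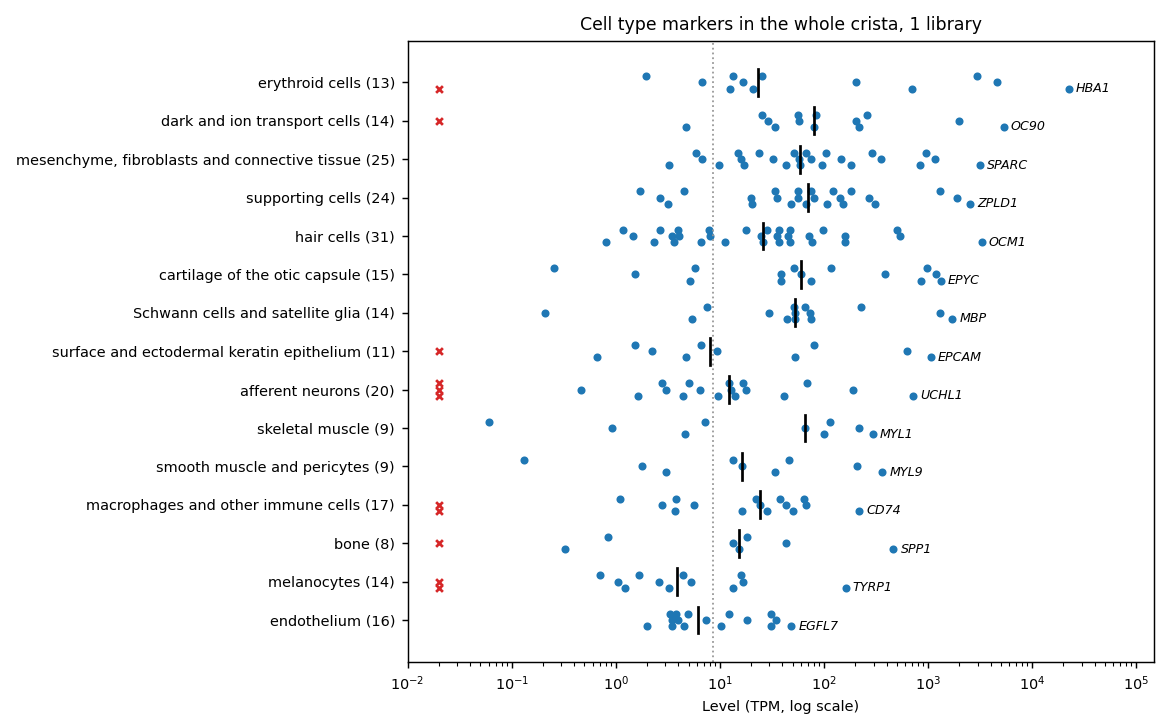
Levels of cell type markers in the whole crista (x axis, TPM, log scale), a row per list with the number of matched genes in brackets, ordered by summed TPM. Each point is a gene, the black bar is the median of the genes read, red crosses at the left edge are genes with no read, the dotted line is the median of all detected genes (8.54 TPM), and the gene with the highest TPM is named. The erythroid list has the largest sum and a median of 23.2 TPM, with *HBA1* at 22447 TPM.

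Among the lists of genes used by every cell, that of ribosomal proteins had the largest sum of TPM. The 63 ribosomal protein genes that matched were all read at 60.1 TPM or more, held 4.28% of the TPM and had a median of 599 TPM. *RPL8*, *RPLP1* and *RPL3* led them at 2384, 1668 and 1651 TPM, and *RPL31* was the lowest. Among the translation factors, *EIF1* had 1238 TPM, *TPT1* 1234 TPM and *EEF1D* 1018 TPM, against 756 TPM for the elongation factor *EEF1A1* and 12.5 TPM for the initiation factor *EIF4G1*. *UBB*, polyubiquitin, is listed under a pair of identifiers with 14712 and 1511 TPM. *SKP1*, of ubiquitin ligases, had 888 TPM and the proteasome subunit *PSMA1* 668 TPM. Actin genes had 5367 TPM (*ACTB*) and 2462 TPM (*ACTG1*), and the actin-sequestering thymosin *TMSB4X* 2958 TPM. *STMN1*, the microtubule destabilizer stathmin, had 1583 TPM, the myosin light chain *MYL12A* 1111 TPM and *MYL6*, another, 36.1 TPM. *CSRP2*, a LIM domain protein, had 2615 TPM and the GTPase *RHOA* 1823 TPM. Reads can be shared between near-identical copies in these families, so that the split between copies is uncertain.

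Energy metabolism was led by *GAPDH*, with 20239 TPM and 840753 reads, the next after *COCH* in reads. It held 79.2% of the TPM of the glycolysis list. *LDHB*, the lactate dehydrogenase subunit of oxidative tissues, had 1995 TPM, 6.65 times more than *LDHA* on TPM and 4.03 times more on reads. *CKB*, the brain-type creatine kinase, had 4347 TPM. *PGAM1*, *ENO1* and *GPI*, other glycolytic enzymes, had 1059, 663 and 469 TPM, and *PFKM*, a phosphofructokinase, 1.28 TPM. *PGK2* and *PKLR*, which RefSeq lists with the names *PGK1* and *PKM*, had 933 and 663 TPM. *ALDOA*, an aldolase, had no read, and its relative *ALDOC* had 304 TPM. The 28 matched respiratory chain genes of the nucleus summed to 1.63% of the TPM, with *COX6A1* at 2687 TPM, *COX6C* at 1264 TPM and *SDHC* the lowest at 14.1 TPM. This sum was 16330 TPM, and 23483 TPM when members deposited under older names were added. Under the names deposited, the ATP synthase genes *ATP5B*, *ATP5C1* and *ATP5G3* had 2442, 1795 and 1711 TPM, *ATPIF1*, its inhibitor, had 1678 TPM and *UQCR10* of complex III 1777 TPM. The adenine nucleotide carrier *SLC25A6* had 2960 TPM and *CHCHD2* 1853 TPM. The 13 protein genes of the mitochondrial genome summed to 2.50% of the TPM and 0.879% of the reads. Among them *COX3* stood at 11665 TPM, 9.73 times above *COX1* on TPM, but 6.93 times with annotated lengths and 3.50 times on reads. *CYTB* had 3637 TPM, *COX2* 3287 TPM and *ATP6* 2754 TPM, and *ND6* was the lowest at 97.6 TPM.

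Iron storage, redox and secretory genes were also abundant. *FTH1*, the ferritin heavy chain, had 7111 TPM, 182 times more than the light chain *FTL*. *GPX1*, *TXN* and *PRDX1*, which remove peroxides or reduce thiols, had 2415, 2298 and 2220 TPM. The secreted peroxidase *GPX3* had 1346 TPM and *NQO1*, a quinone reductase, 25.2 TPM. Of the chaperones and secretory pathway genes, *HSPA8*, a constitutive chaperone, led with 2415 TPM, followed by the cyclophilin *PPIA* (1941 TPM), *AGR3*, *SEC61B* of the protein translocation channel (1243 TPM), *P4HB*, protein disulphide isomerase (1220 TPM), and the cyclophilin *PPIB* (1206 TPM). The chaperonin subunit *CCT3* was the lowest, at 7.24 TPM. Calmodulin *CALM2* had 5028 TPM and the Ca2+-binding protein *S100A6* 4880 TPM. Other leading genes were *H3-3B*, a replacement histone (4520 TPM), the RNA-binding *YBX1* (2944 TPM), the lysosomal *LAPTM4A* (2772 TPM), *ARF1*, a GTPase of vesicle budding (2043 TPM), *NREP* (1825 TPM) and *APLP2*, a relative of *APP* (1603 TPM).

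Genes induced by handling or stress were moderate. Of 26 matched, *BTG1* (655 TPM) and *SGK1* (418 TPM) led, while the immediate early genes *JUN*, *EGR1* and *FOS* stood at 53.3, 25.2 and 9.84 TPM and *ATF3* at 1.90 TPM. *ATF4*, *BTG2* and *CCN2* had 184, 157 and 141 TPM, and *DNAJB1*, an inducible co-chaperone, 0.158 TPM. Cell cycle genes were read in full, all 22 of them, with 17 (77.3%) at 10 TPM or more. Over all detected genes, with or without a symbol, the share was 47.5%. *RRM1*, of nucleotide synthesis, had 193 TPM, *PCNA*, the replication clamp, 131 TPM and *CDK1* 130 TPM, against 17.1 TPM for *TOP2A*, 9.68 TPM for *MKI67* and 3.05 TPM for *CENPF*, the last being the lowest of the list. Of 41 matched otic transcription factors 38 were read, and 19 of these (50%) stood at 10 TPM or more. This lay below the share among genes with a symbol, and near the 47.5% of all detected genes. The median of the 38 factors was 10.3 TPM, against 8.54 TPM for all detected genes, with or without a symbol. *LMX1A* (146 TPM), *HMX2* (95.2 TPM), *EYA1* (85.3 TPM), *MEIS1* (79.8 TPM) and *SOX9* (74.8 TPM), which pattern the otocyst and its derivatives, were the highest. *SOX9* lay 43.9 times above *SOX2* on TPM and 105 times on reads, of which *SOX2* had 90.0. *SOX9* is also on the cartilage list, and its sources were not separated. *TFAP2A*, of the early ectoderm, had 4.00 reads and was the lowest gene read. *OTX1*, *OTX2* and *TFAP2B* had no read.

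**Figure D5:**
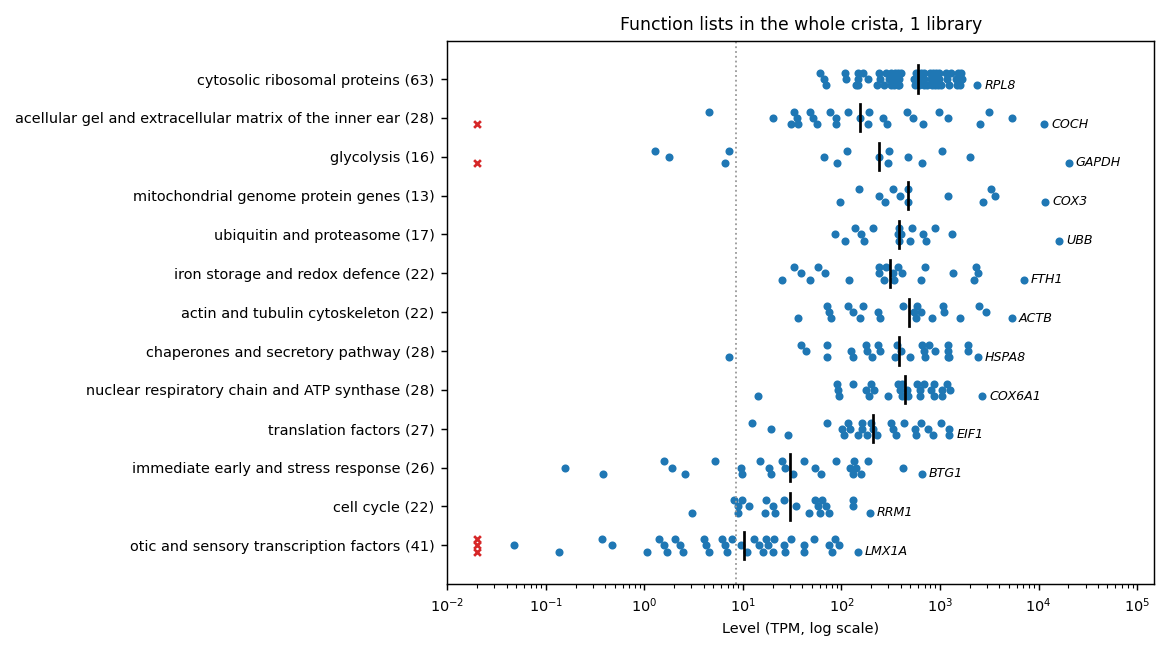
Levels of genes in the function lists in the whole crista (x axis, TPM, log scale), a row per list with the number of matched genes in brackets, ordered by summed TPM. Points, black bars, red crosses and the dotted line are as for the cell type markers: a gene, the median of the genes read, a gene with no read and the median of all detected genes. Ribosomal protein genes have a median of 599 TPM and otic transcription factors one of 10.3 TPM.

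Sorted by function, the 100 leading nuclear genes included 15 of translation, 14 of mitochondrial energy supply, 10 of protein folding and secretion, 7 of the cytoskeleton and 6 of iron storage and redox defence. Besides the 5 inner ear genes they held 5 of connective tissue and matrix, 3 globins, 2 of myelin and 2 of ion transport and gap junctions. Another 6 were placed in a class of secreted growth factors, inhibitors and chemokines. Among the 50 leading genes by TPM, 30 were also among the 50 with the most reads. Other genes led by reads but not by TPM, with *COL1A2* (222429 reads), *PSAP*, the precursor of lysosomal saposins (174903), *COL9A1* (172350) and *APP*, the amyloid precursor (165617), at the top of those outside the first 50 by TPM. The chaperone *HSP90AA1* (136552 reads), the collectin *COLEC12* (134601), the initiation factor *EIF4G2* (132104), *C9ORF58* (121308), *STMN1* (117035) and *SCCPDH* (116963) completed the first 10 of these. The median effective length was 994 bases for the 100 leading genes and 2204 bases for all detected genes.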

How the data were processed

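The authors amplified cDNA from RNA of pooled cristae with SMART-Seq chemistry (a Low Input kit in the paper, v4 in the labels), and sequenced a Nextera XT library in pairs on a NovaSeq. The sample title gives the input in ng, the library name and the paper's methods in pg, which is followed here. Reads were quantified by the authors in the DRAGEN RNA pipeline at its defaults, against Ensembl genes of GRCg7b. The submitters' processing notes also name bcl2fastq 2.20.0.422 and the build galGal4. Each gene has, as deposited, an estimated count of reads (not whole for 96.5% of detected genes) and the TPM, together with the length and effective length. For all detected genes (100%) the TPM equalled the scaled reads per effective length within 1%. The deposited counts are not normalized.

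The values were used as they stand. Symbols come from the deposited gene table. Of the named genes, 13752 matched a single RefSeq gene of GRCg7b, from which positions and other names come. A gene was detected with at least 1 read. In the lists, identifiers that share a symbol were summed. Intervals are exact Poisson intervals of rounded reads. In Poisson counts simulated for 30108 genes, 95.6% of intervals held the true value. Only the 18001 genes with a mean of at least 1 read were counted. The counts were drawn from the distribution that the intervals assume, so this checks the calculation, not the error of amplified reads. Members and lists were chosen with earlier results of these data known. Named are the 50 symbol-bearing nuclear genes of highest TPM, the next 10 by reads, the 8 assigned markers, and the highest, lowest and unread members of each list. Genes outside this rule, and the function classes of the 100 leading genes, were chosen after their values were seen. Alternatives were reads (CPM), TPM without the 13 mitochondrial genes, annotated length, other detection thresholds and lists without their leading member. The hair cell libraries were not used, and no sequence is shown. A few genes that count in the lists are not reported here. Values were computed in Python 3.11.15 with scipy 1.17.1, pandas 2.3.3 and numpy 2.4.6, and drawn with matplotlib 3.10.9.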

Additional observations from a re-analysis of the deposited data

Results flagged for a closer look

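Genes listed by identifier alone held 2.67% of the estimated reads, a signal outside the genes described above. Of these genes, 35 stood at 100 TPM or more and 4 at 1000 TPM or more. The most abundant, ENSGALG00010000588, had 181336 reads and 8184 TPM, which would place it between *CTAGE1* and *FTH1*. The next, ENSGALG00010009446, had 2012 TPM. What they encode was not examined.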

How the results depend on the processing

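The number of detected genes stayed within 1.5 times of 18001 at any value above 0, at 3 or 10 reads, at 1 TPM, and for genes with a symbol or protein-coding genes alone, with 12534 to 18017 genes, and fell to 8550 at 10 TPM. With reads in place of TPM, 955 genes held 50% of the library and the first 100 held 21.1%. That share was 28.8% without mitochondrial genes and 29.98% among genes with a symbol. Of the 20 leading genes by TPM 11 were also leading by reads, and of the 100 leading genes 61. The levels of 63 named genes moved by 1.03 times without mitochondrial genes, by 0.506 to 1.39 times with annotated lengths and by 0.0993 to 4.37 times on CPM. On CPM the erythroid sum fell to 0.199 of its TPM value, from the third to the 16th place of 29 lists. *CNMD*, *PGK1*, *PKM* and 6 respiratory genes were found under other names after the values were seen. Depth limits only genes with few reads. No paired analysis was possible because each condition has 1 library.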

Other observations

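Genes of a few other groups were chosen after their values were seen. Secreted growth factors and inhibitors included the heparin-binding proteins *MDK* (1915 TPM) and *PTN* (1376 TPM), the chemokine *CXCL14* (1475 TPM), *SERPINF1* (1253 TPM), the protease inhibitor *SERPINE2* (1172 TPM) and the Wnt inhibitors *FRZB* (1115 TPM) and *SFRP5* (570 TPM). *BMP4*, a signal of the early cristae in chick, had 34.7 TPM.

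Genes known from tendon and other dense connective tissue covered a wide range. *TNMD*, tenomodulin, had 1635 TPM and *KERA*, keratocan, 650 TPM. The matrix proteins *FMOD* and *CHAD* had 58.5 and 51.6 TPM, and the tendon transcription factors *MKX* and *SCX* had 28.9 and 0.332 TPM, the last with 8.54 reads. *ITM2A*, a membrane protein, had 4137 TPM. *DEFB4A*, an antimicrobial defensin that RefSeq lists also as *AvBD2*, had 517 TPM. The copy of the ATP synthase alpha-subunit on the Z chromosome, *ATP5F1AZ*, had 1245 TPM, and that on the W chromosome, *ATP5F1AW*, which only females carry, 96.0 TPM.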
